A study of Mus musculus with 13 samples.

Results

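B-cell identity and receptor genes were followed through sorted mouse thymocytes. The members were chosen by name as genes known from B cells, at a time when earlier results of these data were known. The 37 listed names stood for 36 genes among the 47937 genes of the count table, since Faim3 is an older name of Fcmr. All 36 were found, and March1 is listed under that name. The libraries came from double negative (DN) thymocytes, which lack CD4 and CD8, at the DN3 stage (CD44 low, CD25 high) and the DN4 stage that follows it (CD44 low, CD25 low). The mice were on the C57BL/6 strain and, per the study's methods, aged 6 to 8 weeks. They were WT;Lck-Cre+ (Wt) or Opa1fl/fl;Lck-Cre+, which carry floxed Opa1 and are named KO-labelled below. Lck-Cre, a Cre recombinase driven by a T-lineage promoter, was present in the controls too. There were 3 KO-labelled and 3 Wt DN3 libraries, 3 KO-labelled and 4 Wt DN4 libraries, from 7 mice, 6 of which gave both stages. Each library is named by its mouse, KO45, KO49 and KO51 or WT05, WT40, WT46 and WT48.

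The libraries held 5926848 to 14148661 counts. Opa1, the targeted gene, stood at 90.6 ± 2.79 CPM (CPM, counts scaled to a common library size by TMM; SD, n = 3) in DN3 of the KO-labelled mice, 98.3 ± 11.7 CPM (SD, n = 3) in DN3 of the Wt mice, and at 82.1 ± 5.52 CPM (SD, n = 3) against 89.0 ± 3.92 CPM (SD, n = 4) in DN4. A count over the whole gene does not show whether a floxed segment was lost, so the genotype of these libraries rests on the labels. For its mice the study reported lower OPA1 protein in thymocyte lysates by immunoblot. The stage markers followed the labels. Il2ra, which encodes CD25, was lower in DN4 by a log2 fold change of -6.39 ± 0.28 (SE) in Wt, adjusted p = 1.64e-05, and Cd3e, a chain of the T-cell receptor complex, differed by -0.19 ± 0.17, adjusted p = 0.476 (edgeR's quasi-likelihood test, Benjamini-Hochberg adjustment over all genes). The DN3 library of mouse WT05 stood apart from its group. Its counts differed from those of the other Wt DN3 libraries by a chi-square per degree of freedom of 383 and 445, against 7.01 between those other libraries, and without it 31 members were called in the Wt stage comparison below.

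B cells recognise antigen through a membrane immunoglobulin made of heavy and light chains, which needs the CD79A and CD79B signalling chains to reach the surface. PAX5 and EBF1 are the transcription factors that set and hold the B-cell programme, and CD22, CD72 and Siglec-G are co-receptors that dampen the receptor's signal. The thymus is known to hold a small B-cell population, and some genes of the list are known to be transcribed in T-lineage cells as well. In its flow cytometry the study took the DN subsets from lineage-negative thymocytes, a gate that would remove B cells and other cells whose markers are in its antibody mix. Whether the sort for these libraries used that gate, and which antibodies it held, is not given in the sources used here. In bulk libraries such as these, fewer cells of a type and less RNA per cell cannot be told apart.

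Promoter stretches of 5 members are shown because they represent the main patterns that follow: Cd79a, Cd22 and Fcrl1 were near 0 in DN3 and high in DN4, Vpreb3 was the least abundant receptor gene, and Spib was already present in DN3. RefSeq (GRCm38.p6) held a promoter for 26 of the 36 members, and the other 10 (Cd79b, Ms4a1, Ighm, Ighd, Igkc, Iglc2, Cd40, Cd83, Cd86, Cxcr5) were not scanned. The stretches lie before the RefSeq start and outside GENCODE M21 exons. They are written along the gene's strand, 5′ to 3′, and capitals mark the motif matches on either strand. Cd79a is at chr7:24897247-24897380 (+), Cd22 at chr7:30879029-30879176 (-), Vpreb3 at chr10:75948100-75948299 (+), Fcrl1 at chr3:87376187-87376386 (+) and Spib at chr7:44532072-44532271 (-).
Cd79a: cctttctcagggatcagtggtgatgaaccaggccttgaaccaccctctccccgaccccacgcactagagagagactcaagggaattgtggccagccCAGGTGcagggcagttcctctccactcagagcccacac
Cd22: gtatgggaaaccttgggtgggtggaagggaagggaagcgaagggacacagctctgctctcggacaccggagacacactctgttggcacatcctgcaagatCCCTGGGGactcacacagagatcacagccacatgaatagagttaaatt
Vpreb3: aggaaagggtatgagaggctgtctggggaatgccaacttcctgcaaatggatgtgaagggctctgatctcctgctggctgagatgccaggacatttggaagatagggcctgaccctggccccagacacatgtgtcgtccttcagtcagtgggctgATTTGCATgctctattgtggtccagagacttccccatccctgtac
Fcrl1: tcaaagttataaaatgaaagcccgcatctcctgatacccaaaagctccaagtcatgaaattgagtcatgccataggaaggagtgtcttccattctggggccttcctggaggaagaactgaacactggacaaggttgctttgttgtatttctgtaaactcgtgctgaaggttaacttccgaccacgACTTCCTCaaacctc
Spib: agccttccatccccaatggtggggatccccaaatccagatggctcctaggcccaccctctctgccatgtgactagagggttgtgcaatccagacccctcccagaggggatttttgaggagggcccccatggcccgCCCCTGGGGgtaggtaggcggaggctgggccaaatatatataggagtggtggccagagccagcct
The capitals are an E-box (CAGGTG or its complement) in Cd79a, the EBF1 half-sites CCCNNGGG in Cd22 and, as 2 overlapping matches, in Spib, an octamer (ATGCAAAT, on the other strand) in Vpreb3 and the Spi-B and PU.1 core GAGGAAGT (on the other strand) in Fcrl1. Over the 250 bases before the start, on both strands, the EBF1 half-sites were present in 3 of 26 members (11.5%) and in 13.4% of all 27025 gene symbols with a promoter. The octamer was present in 2 members, Blnk and Vpreb3 (7.69%, against 1.81%), the Spi-B and PU.1 core in 4, Cd72, Fcrl1, Cd37 and Rasgrp3 (15.4%, against 2.79%), and the E-box in 11 (42.3%, against 19.4%). Each match is a run of letters in a window and not a binding site, and no test was made of these shares.

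Nearly the whole list was higher in DN4 than in DN3. In Wt, 36 members were tested and 33 were higher in DN4, where 22.9% of 12691 genes were called in either direction and 13.4% were called higher. In KO-labelled mice, 35 were tested and 32 were higher, where 18.6% of 12580 genes were called in either direction and 11.2% higher. No member (0) was lower in DN4 in either genotype, where 9.43% of genes in Wt and 7.34% in KO-labelled mice were called lower. The median log2 fold change of the tested members was 6.60 for Wt and 7.13 for the KO-labelled mice, while the median over all genes was -0.03 and -0.02. March1 had no count in DN3, and with March1 set at its lower bound the medians were 6.38 and 6.71. The members not called were Spib, Tnfrsf13b and Ralgps2 in each genotype, and Vpreb3 was not tested in KO-labelled mice. With the mouse as a replicate block, 34 members were called in each genotype, and those gained were Tnfrsf13b in Wt and Spib and Tnfrsf13b in KO-labelled mice. In Wt this fit also left out WT40, which gave DN4 only. With no block, 35 members were called in Wt without WT40, Spib and Tnfrsf13b among them. On the same libraries the block thus added no call in Wt, and that of Spib was lost. Spib and Tnfrsf13b were also called in Wt without the DN4 library of WT46, and in KO-labelled mice without that of KO51. Leaving out 1 library moved the fitted fold by more than 1.5 times for 29 of the 33 members called in Wt and 23 of the 32 in KO-labelled mice. The limma-voom test called 9 members in Wt and 14 in KO-labelled mice, with medians of 6.08 and 6.46, all tested members above 0, and 26 and 32 at an unadjusted p under 0.05. In both genotypes it called Cd79a, Igkc, Ighm, Ighd, Cd72, Cd86, Pou2af1 and Bach2, in Wt also Vpreb3, and in KO-labelled mice also Cd79b, Cd22, Cd37, Cd40, March1 and Rasgrp3. Every other rise of a member given below was called by edgeR's test and not by limma-voom. Members that passed a filter on low values only through their DN4 counts had to differ, and with the 10 and 11 members that held at least 10 counts in every library of the fit, 7 and 8 were called.

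The level in DN3 split the members into 3 classes. There were 3 members at the floor, with 3 counts or fewer in each of the 6 DN3 libraries (Cd40, March1 and Cd86). There were 11 shared members, at 1 CPM or more in every DN3 library (Ighm, Ighd, Cd79b, Spib, Tnfrsf13b, Ralgps2, Bach2, Cd72, Pou2af1, Btk and Cd37). The remaining 22 lay between these limits. The 7 DN4 libraries all lay above the 6 DN3 libraries for 31 of the 36 members, and for 12.7% of 13509 genes with at least 10 counts in 3 or more libraries. The members whose stages overlapped were Vpreb3, Spib, Btk, Tnfrsf13b and Ralgps2.

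**Figure D1:**
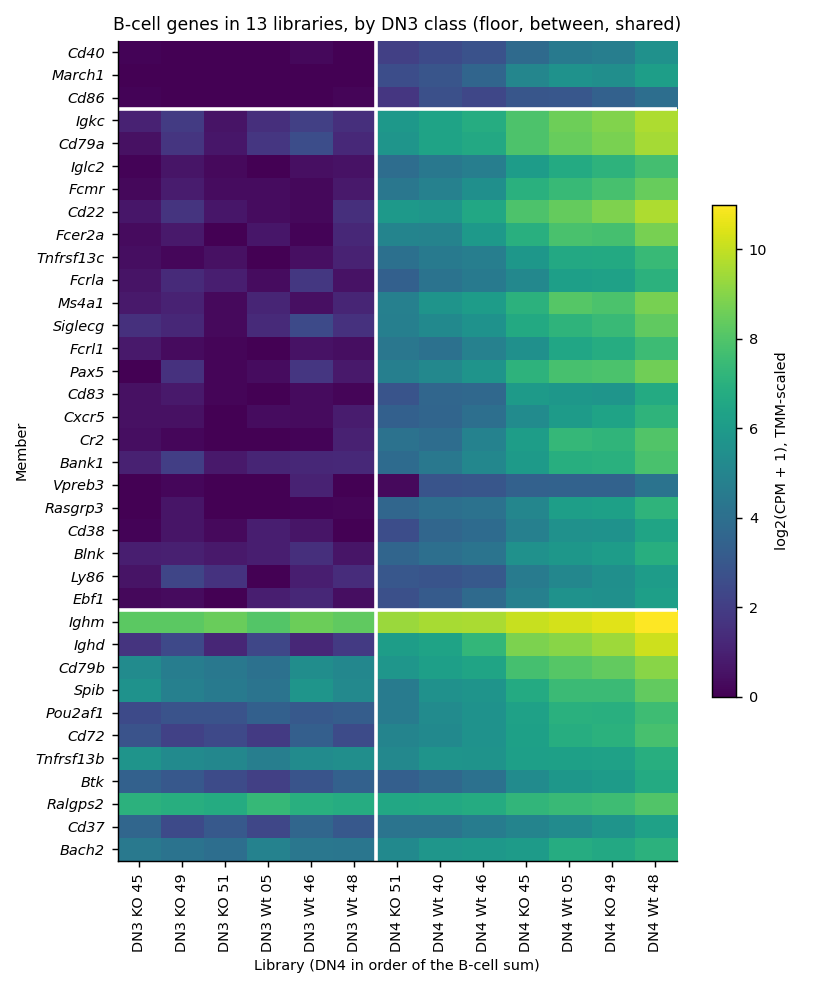
Heat map of log2(CPM + 1) for the 36 members (rows, in the classes floor, between and shared, divided by white lines) in 6 DN3 and 7 DN4 libraries (columns, DN4 in rising order of the summed B-cell markers). Rows above the lower line are dark in DN3 and brighten from left to right in DN4, while Ighm, Ralgps2 and Tnfrsf13b are bright in both stages.

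The heavy chain constant gene Ighm was the most abundant member and the one with the highest DN3 level. In DN3, KO45, KO49 and KO51 had 294, 299.9 and 359 CPM of Ighm, while WT05, WT46 and WT48 had 262, 372 and 313 CPM. In DN4 it stood at 1077, 1427 and 655 CPM in KO45, KO49 and KO51, and at 1254, 744, 771 and 2033 CPM in WT05, WT40, WT46 and WT48. Every DN4 library lay above every DN3 library, and within the 6 mice that gave both stages the ratio ran from 1.82 in KO51 to 6.49 in WT48. The log2 fold change was 1.90 ± 0.37 (SE) in Wt, adjusted p = 0.00779, and 1.71 ± 0.26 in KO-labelled mice, adjusted p = 0.00409.

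Ighd, the constant gene of the IgD chain that mature naive B cells carry beside IgM, had a far lower DN3 level. It stood at 2.14, 4.39 and 1.28 CPM in KO45, KO49 and KO51 and at 4.10, 1.33 and 2.64 CPM in WT05, WT46 and WT48. In DN4 it reached 454, 659 and 68.1 CPM in KO45, KO49 and KO51 and 522, 82.2, 152 and 1150 CPM in WT05, WT40, WT46 and WT48. The change of Ighd was 7.61 ± 1.17 in Wt, adjusted p = 0.00275, and 7.28 ± 0.93 in KO-labelled mice, adjusted p = 0.00195. There were 0.355 to 1.57 Ighd counts for every 100 Ighm counts in DN3 and 10.4 to 56.6 in DN4. The lowest DN4 ratios were those of KO51 (10.4) and WT40 (11.0). Ighm did not follow the B-cell markers over the DN4 libraries (below), so this ratio moves with Ighm as well. For every 100 CPM of Cd79a, Cd79b, Ms4a1, Pax5 and Ebf1 together, Ighd stood at 33.4 CPM in WT40, 41.3 in KO51 and 44.9 to 60.6 elsewhere.

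The light chain constant genes were nearly silent in DN3. Igkc, the kappa chain, stood at 1.07, 2.79 and 0.490 CPM in DN3 of KO45, KO49 and KO51 and at 1.76, 3.27 and 1.76 CPM in DN3 of WT05, WT46 and WT48. It stood at 242, 480 and 57.6 CPM in DN4 of the KO-labelled mice and at 377, 82.1, 110 and 786 CPM in DN4 of WT05, WT40, WT46 and WT48. Iglc2, a lambda chain, was counted 0 to 4 times in each DN3 library and 144 to 2044 times in each DN4 library, from 14.3 CPM in KO51 to 207 CPM in WT48. The changes were 7.11 ± 1.03 in Wt (adjusted p = 0.00211) and 7.57 ± 0.94 in KO-labelled mice (adjusted p = 0.00174) for Igkc, and 7.99 ± 1.29 (adjusted p = 0.0034) and 8.15 ± 1.09 (adjusted p = 0.00238) for Iglc2. Iglc2 shares 7.65% of its 50-base windows with Iglc3, so reads may be split or lost between these copies.

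CD79A and CD79B form the signalling pair of the receptor, and their genes differed in DN3. Cd79a was counted 5, 17 and 6 times in DN3 of KO45, KO49 and KO51 and 8, 57 and 13 times in DN3 of WT05, WT46 and WT48, which is 0.412 to 5.04 CPM. Cd79b was at 38.1, 24.1 and 19.9 CPM in the KO-labelled and 16.1, 40.9 and 33.4 CPM in the Wt DN3 libraries. In DN4, Cd79a stood at 238, 437 and 52.2 CPM in KO45, KO49 and KO51 and at 349, 81.2, 96.8 and 731 CPM in WT05, WT40, WT46 and WT48. Cd79b stood at 214, 328 and 54.5 CPM and at 274, 72.5, 84.2 and 528 CPM in the same order. Per kilobase of exon the pair was at 195 (Cd79a) and 155 (Cd79b) CPM in DN4 on average, and at 1.38 and 20.1 CPM in DN3. Cd79a shares 8.31% of its 50-base windows with Gm32220. Cd79a rose by 6.63 ± 1.04 in Wt (adjusted p = 0.00299) and 7.94 ± 0.97 in KO-labelled mice (adjusted p = 0.00166), and Cd79b by 2.94 ± 0.75 (adjusted p = 0.0237) and 2.83 ± 0.59 (adjusted p = 0.014). The Cd79b call ended without any one of DN3 WT05, WT46 and WT48 or DN4 WT05 in Wt (adjusted p = 0.0591 to 0.0733), and without DN3 KO49 or KO51 in KO-labelled mice (adjusted p = 0.0669 and 0.0597).

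Vpreb3, which encodes a protein bound to immunoglobulin chains inside the cell, was the least abundant of the receptor genes. It was counted 135, 145 and 2 times in DN4 of KO45, KO49 and KO51 and 121, 64, 84 and 172 times in DN4 of WT05, WT40, WT46 and WT48. In DN3 it was counted 12 times in WT46, once in KO49 and in no other library. Its change in Wt was 4.38 ± 0.87 (adjusted p = 0.00814). Without the DN3 library of WT46 no Wt DN3 count of Vpreb3 was left, and the fitted change, then no measure of size, was 9.59 (adjusted p = 0.00616). In KO-labelled mice, 282 DN4 counts against 1 DN3 count gave a ratio of 219 with an exact 95% counting interval of 38.9 to 8668.

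**Figure D2:**
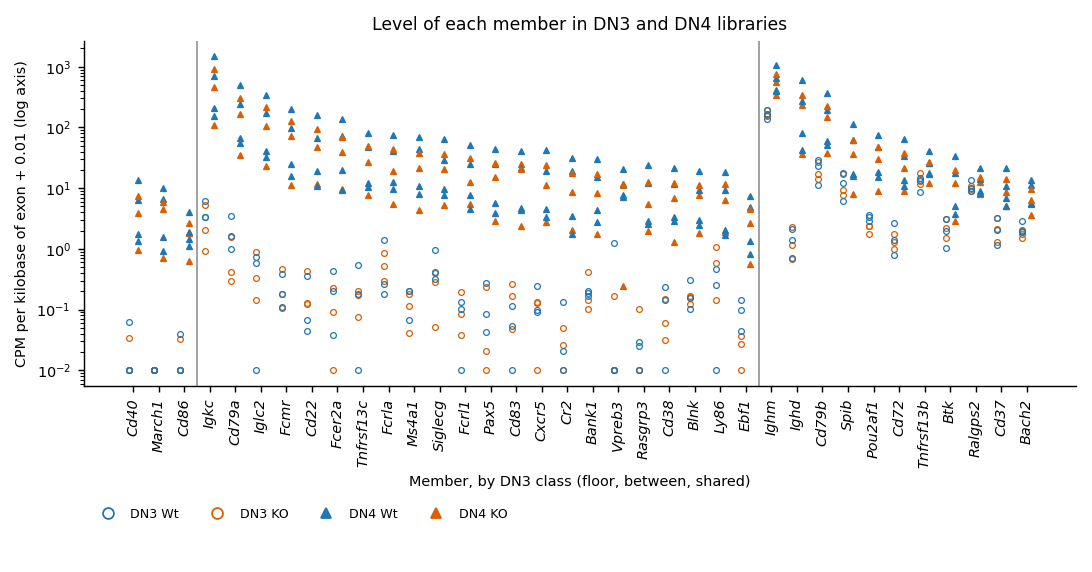
Level of each member in each library as CPM per kilobase of exon plus 0.01 (vertical log axis), with open circles for DN3 and filled triangles for DN4, Wt in blue and KO-labelled in orange; grey lines divide the classes floor, between and shared. The mean levels of Ighm were 168 in DN3 and 603 in DN4, those of Igkc 3.49 and 574, and the DN4 triangles of both genotypes interleave.

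Variable (V) segments, which are joined to the constant genes only in rearranged receptor genes, were read beside the members. Counts on the 185 Ighv segments of the table were 2 to 21 per DN3 library and 248 to 3476 per DN4 library, and counts on the 160 Igkv segments were 2 to 21 and 494 to 6137. In DN4, 64 to 110 Ighv and 80 to 107 Igkv segments held a count. The most abundant segment took 4.78% to 6.05% of the Ighv counts and 5.24% to 6.401% of the Igkv counts of a DN4 library, so no library was carried by 1 segment. Thus DN3 libraries with 894 to 4199 Ighm counts held at most 21 Ighv counts.

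The kappa share depended on which counts were read. Igkc made up 66.1% to 69.2% of the counts on Igkc, Iglc1, Iglc2 and Iglc3 in DN4, from 66.1% (exact binomial 95% interval 65.2% to 67.1%) in KO49 to 69.2% (66.5% to 71.8%) in WT40. Igkv segments made up 87.6% (85.7% to 89.3%) in WT46 to 92.9% (90.3% to 94.9%) in KO51 of the counts on Igkv and Iglv segments. These intervals cover counting error only. The constant gene share and the V segment share differed in every DN4 library, and the cause of the difference was not tested. Switched heavy chains (IgG, IgE and IgA constant genes) made up 0.535% to 1.27% of heavy chain constant counts in DN4 and 0% to 0.175% in DN3. The highest shares were in KO49 (1.19%) and WT48 (1.27%). Ighm, the larger part of these counts, did not follow the B-cell markers over DN4 (below). The order of the libraries by this share therefore depends on Ighm as well.

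**Figure D3:**
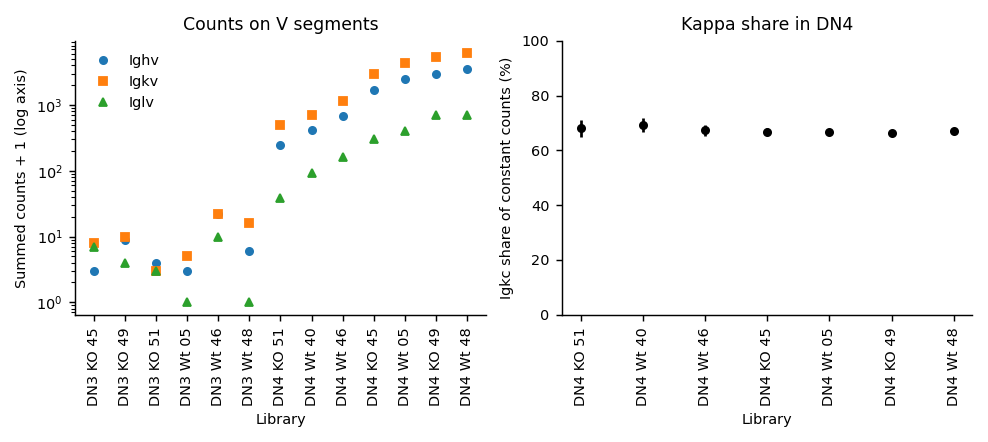
Left, summed counts on Ighv, on Igkv and on Iglv segments, each kind by its own symbol, plus 1 (log axis) in each library; right, the share of Igkc in light chain constant counts of each DN4 library in percent, with exact binomial 95% intervals. Each kind had 21 counts or fewer in a DN3 library, and over DN4, ordered by the B-cell sum, Ighv and Igkv counts rose at each step and Iglv counts at all but the last (716 in KO49, 711 in WT48), while the Igkc share stayed between 66.1% and 69.2%.

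Among the transcription factors, Pax5 and Ebf1 were close to 0 in DN3. Pax5 was counted 0, 15 and 1 times in DN3 of KO45, KO49 and KO51 and 1, 26 and 6 times in DN3 of WT05, WT46 and WT48. In DN4 it stood at 135, 233 and 25.9 CPM in the KO-labelled mice and at 219, 34.1, 51.03 and 387 CPM in WT05, WT40, WT46 and WT48. Ebf1 was counted 0 to 15 times in DN3 and stood at 26.3, 44.5 and 5.38 CPM in DN4 of KO45, KO49 and KO51 and at 47.5, 7.90, 13.01 and 73.0 CPM in DN4 of WT05, WT40, WT46 and WT48. Both genes were thus lowest in KO51 and highest in WT48. Pax5 rose by 6.995 ± 1.17 in Wt (adjusted p = 0.004) and 7.84 ± 1.15 in KO-labelled mice (adjusted p = 0.00341), and Ebf1 by 5.30 ± 1.01 (adjusted p = 0.00682) and 7.43 ± 1.05 (adjusted p = 0.00295). The size for Pax5 depended on single DN3 libraries, with 11.18 in KO-labelled mice without KO49 (1 DN3 count left, adjusted p = 0.0135) and 8.23 in Wt without WT46 (adjusted p = 0.0174).

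The other transcription factors had a DN3 level. Pou2af1, the coactivator of the octamer-binding factors, stood at 4.45 to 9.36 CPM in DN3 and 22.7 to 191 CPM in DN4 and rose by 3.56 ± 0.61 in Wt (adjusted p = 0.00441) and 3.72 ± 0.56 in KO-labelled mice (adjusted p = 0.00392). Bach2, a repressor that is also known in T cells, stood at 14.8 to 28.7 CPM in DN3 and 35.9 to 133 CPM in DN4 and rose by 1.99 ± 0.37 (adjusted p = 0.00604) and 1.89 ± 0.34 (adjusted p = 0.00781). Spib, an ETS factor of B cells and plasmacytoid dendritic cells, behaved differently. It stood at 17.8 to 51.8 CPM in DN3 and at 22.9 to 326 CPM in DN4, and its DN4 level was 0.966 times the DN3 level in WT46, 1.03 times in KO51 and 10.1 times in WT05. Its log2 fold change was 2.06 ± 0.73 in Wt, adjusted p = 0.0782, and 1.62 ± 0.64 in KO-labelled mice, adjusted p = 0.12. With the mouse as a replicate block, Spib was called in KO-labelled mice (1.31, adjusted p = 0.0256) and not in Wt. The block fit in Wt left out WT40, and without WT40 and with no block Spib was called (2.36, adjusted p = 0.0383).

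Of the surface molecules, Ms4a1, which encodes CD20, was counted 2 to 11 times in each DN3 library. In DN4 it stood at 134, 238 and 27.0 CPM in KO45, KO49 and KO51 and at 273, 50.1, 66.5 and 423 CPM in WT05, WT40, WT46 and WT48. It rose by 7.91 ± 1.12 in Wt (adjusted p = 0.00189) and 7.72 ± 0.98 in KO-labelled mice (adjusted p = 0.00188). The inhibitory co-receptor Cd22 was among the most abundant surface members, with a mean of 58.2 CPM per kilobase in DN4 and 0.183 in DN3, and rose by 8.60 ± 1.37 (adjusted p = 0.00316) and 7.97 ± 0.94 (adjusted p = 0.00144). Siglecg, another inhibitory receptor, rose by 5.48 ± 0.94 (adjusted p = 0.00448) and 6.38 ± 0.86 (adjusted p = 0.00249). Cd72 had a DN3 level of 2.63 to 8.94 CPM and rose by 4.13 ± 0.75 (adjusted p = 0.0056) and 4.05 ± 0.54 (adjusted p = 0.00226). It shares 36.7% of its 50-base windows with Tesk1 on the opposite strand, and whether strand was used in counting is not given in the sources used here. Cd37 and Cxcr5 overlap Tead2 and Bcl9l on the opposite strand.

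The Fc and complement receptors were all in the class between. Fcmr, the receptor for IgM, rose by 8.53 ± 1.36 in Wt (adjusted p = 0.00316) and 8.27 ± 1.12 in KO-labelled mice (adjusted p = 0.00251). Fcer2a, which encodes CD23, rose by 8.12 ± 1.34 (adjusted p = 0.00368) and 8.74 ± 1.02 (adjusted p = 0.00139), and Cr2, the complement receptor known from follicular and marginal zone B cells, by 8.02 ± 1.504 (adjusted p = 0.00647) and 8.73 ± 1.13 (adjusted p = 0.00201). Without DN3 WT48 the Wt change was 9.68 for Fcer2a and 10.45 for Cr2, and without DN3 KO45 the KO-labelled change of Cr2 was 10.14. The Fc receptor-like genes were lower in level than Fcmr, and Fcrl1 rose by 7.82 ± 1.26 (adjusted p = 0.00334) and 7.26 ± 0.88 (adjusted p = 0.00157). Fcrla rose by 5.56 ± 1.01 (adjusted p = 0.00576) and 5.45 ± 0.84 (adjusted p = 0.00425). Cd38, an ectoenzyme, rose by 6.58 ± 1.14 (adjusted p = 0.00462) and 6.69 ± 1.01 (adjusted p = 0.00384). Cd37, a tetraspanin found on several leukocyte types, had 4.10 to 11.5 CPM in DN3 and a smaller change of 2.28 ± 0.56 (adjusted p = 0.0201) and 2.03 ± 0.44 (adjusted p = 0.0164). The Cd37 call ended without DN3 WT48 or DN4 WT05 in Wt (adjusted p = 0.0723 and 0.0507) and without DN3 KO49 or KO51 in KO-labelled mice (adjusted p = 0.0583 and 0.061).

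The signalling genes fell on either side of the DN3 limit. Blnk, the adaptor that links the receptor to its downstream enzymes, rose by 5.45 ± 0.97 in Wt (adjusted p = 0.00525) and 5.58 ± 0.72 in KO-labelled mice (adjusted p = 0.00206). Bank1, a scaffold of receptor signalling, rose by 6.17 ± 1.05 (adjusted p = 0.00433) and 5.51 ± 0.91 (adjusted p = 0.00565). Rasgrp3, which activates Ras downstream of the receptor, was counted 0 to 4 times in a DN3 library. In Wt, 2614 DN4 counts of Rasgrp3 against 2 DN3 counts gave a ratio of 694 (exact 95% counting interval 192 to 5737), adjusted p = 0.00299 in the fit. In KO-labelled mice Rasgrp3 rose by 8.04 ± 1.11 (adjusted p = 0.00262), a size that rests on the 4 counts of DN3 KO49, the only ones in that group. Without that library no KO-labelled DN3 count of Rasgrp3 was left, and the fitted change, then no measure of size, was 11.89 (adjusted p = 0.022).

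Btk and Ralgps2 were present in DN3. Btk, the kinase downstream of the receptor, stood at 9.65, 7.05 and 4.71 CPM in DN3 of KO45, KO49 and KO51 and at 3.22, 6.28 and 9.58 CPM in DN3 of WT05, WT46 and WT48. In DN4 it stood at 38.9, 63.6 and 8.96 CPM in the KO-labelled mice and at 56.1, 12.0, 15.9 and 105 CPM in WT05, WT40, WT46 and WT48. Only the DN4 library of KO51 lay within the DN3 range. Btk rose by 2.79 ± 0.81 (adjusted p = 0.038) and 2.35 ± 0.63 (adjusted p = 0.0369). The Wt call of Btk ended without any one of DN3 WT05, WT46 and WT48 or DN4 WT05 and WT48 (adjusted p = 0.0649 to 0.111), and the KO-labelled call without any one library other than DN4 KO51 (adjusted p = 0.0626 to 0.121). Ralgps2, an exchange factor for Ral GTPases, stood at 107 to 163 CPM in DN3 and at 151, 188 and 95.02 CPM in DN4 of KO45, KO49 and KO51 and 174, 99.0, 108 and 258 CPM in DN4 of WT05, WT40, WT46 and WT48. Its DN4 levels lay above the DN3 range in KO49, WT05 and WT48 and below it in KO51 and WT40, and its change was 0.26 ± 0.33 (adjusted p = 0.623) and 0.25 ± 0.23 (adjusted p = 0.493).

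Among the costimulatory, survival and homing genes, March1, the ubiquitin ligase that lowers MHC class II and CD86 at the surface, had 0 counts in all 6 DN3 libraries. It was counted 444, 603 and 50 times in DN4 of KO45, KO49 and KO51 and 569, 66, 141 and 697 times in DN4 of WT05, WT40, WT46 and WT48, and against the 3 counts per library that a count of 0 allows it was at least 69.0-fold higher in Wt (adjusted p = 0.0111) and at least 83.4-fold higher in KO-labelled mice (adjusted p = 0.00744). Cd40, the receptor for T-cell help, was counted 183, 362 and 32 times and 257, 46, 75 and 452 times in the same DN4 libraries. Its ratio of DN4 to DN3 was 220 (exact 95% counting interval 60.8 to 1824) in Wt, on 2 DN3 counts, adjusted p = 0.00611, and 447 (80.0 to 17705) in KO-labelled mice, on 1 DN3 count, adjusted p = 0.00295. Cd86, a ligand of CD28, was counted 93, 141 and 23 times and 82, 55, 51 and 144 times, with ratios of 176 (31.4 to 6988), adjusted p = 0.00122, and 199 (35.5 to 7903), adjusted p = 0.00226, each on 1 DN3 count.

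Tnfrsf13c, the BAFF receptor on which mature B cells depend, rose by 7.003 ± 1.12 in Wt (adjusted p = 0.00321) and 7.51 ± 0.89 in KO-labelled mice (adjusted p = 0.00144). Tnfrsf13b, which encodes TACI and binds BAFF as well, had another pattern. It stood at 49.97, 36.9 and 32.9 CPM in DN3 of KO45, KO49 and KO51 and at 24.9, 38.9 and 41.6 CPM in DN3 of WT05, WT46 and WT48. It stood at 72.9, 77.2 and 34.3 CPM in DN4 of the KO-labelled mice and at 74.3, 49.9, 48.6 and 117 CPM in DN4 of WT05, WT40, WT46 and WT48. The stages overlapped, and the change was 1.002 ± 0.34 (adjusted p = 0.0643) and 0.59 ± 0.31 (adjusted p = 0.219). Within mice the DN4 level of Tnfrsf13b was 1.04 to 2.99 times the DN3 level, above it in 6 of 6. With the mouse as a replicate block Tnfrsf13b was called in Wt (log2 fold change 1.09, adjusted p = 0.0223) and in KO-labelled mice (0.54, adjusted p = 0.0306). The block fit in Wt left out WT40, and without WT40 and with no block Tnfrsf13b was called too (1.14, adjusted p = 0.0468). Cd83, an activation marker, rose by 7.97 ± 1.34 (adjusted p = 0.004) and 6.71 ± 1.03 (adjusted p = 0.00411), Cxcr5, the follicle homing receptor, by 6.90 ± 1.27 (adjusted p = 0.00609) and 7.24 ± 1.04 (adjusted p = 0.00317), and Ly86, the partner of the CD180 receptor, by 4.77 ± 1.10 (adjusted p = 0.0159) and 3.57 ± 0.79 (adjusted p = 0.0174). The Ly86 call ended without the DN3 library of WT46 in Wt (adjusted p = 0.0653) and without that of KO51 in KO-labelled mice (adjusted p = 0.0689).

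The level of the list differed widely between DN4 mice. The B-cell sum, the summed CPM of Cd79a, Cd79b, Ms4a1, Pax5 and Ebf1, was 748, 1281 and 165 CPM in DN4 of KO45, KO49 and KO51 and 1162, 246, 311 and 2142 CPM in DN4 of WT05, WT40, WT46 and WT48. The highest was 12.98 times the lowest, and without WT48 it was 7.77 times. The libraries fell into no order by genotype, with KO51, WT40 and WT46 low and WT48 high. All members together took 0.157% of the counts in KO51 and 1.14% in WT48, against 0.0316% to 0.0757% in DN3.

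Most members followed this sum. For each member with at least 10 counts in every DN4 library, the SD of log2 CPM over the 7 libraries was set beside the SD of the log2 ratio to the B-cell sum, with the member itself left out of the sum. Of 35 members assessed, 29 scaled with the sum, that is, the second SD was at most 0.5 of the first. The other 6 did not (Ighm, Tnfrsf13b, Ralgps2, Bach2, Cd37 and Cd86). The sum is itself made of 5 members, and genes outside the list were not assessed. The share of all genes that would pass this limit is therefore not known. Vpreb3, with 2 counts in KO51, was not assessed. All 21 assessed members of the class between scaled, as did 6 of 11 shared and 2 of 3 floor members.

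The closest followers were Btk, Igkc and Cd40. Btk ranged 11.7-fold over the DN4 libraries, but its ratio to the sum ranged 1.13-fold, with an SD of 0.06 on the log2 scale. Igkc ranged 13.7-fold and its ratio 1.16-fold (SD 0.08), and Cd40 14.4-fold and its ratio 1.22-fold (SD 0.09). The SD that counting error alone would give was 0.10 for Btk, 0.04 for Igkc and 0.16 for Cd40. The SDs of Btk and Cd40 lay below theirs, so the exact rank of these genes is not resolved. At the other end, Ralgps2 ranged 2.71-fold and its ratio to the sum 4.79-fold (SD 0.86), Tnfrsf13b 3.41-fold and 3.81-fold (SD 0.84), and Ighm 3.10-fold and 4.18-fold (SD 0.82). Among the members that scaled, Cd83 and Cr2 had the widest ratios, 2.26-fold and 2.34-fold: Cd83 stood at 8.48 CPM for every 100 CPM of the sum in KO45 and at 3.74 to 4.83 in the other DN4 libraries.

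A straight line of member CPM on the B-cell sum over the 7 DN4 libraries, chosen after the data were seen, was drawn for each member. Among those that did not scale, the line met a B-cell sum of 0 at 551 ± 26.9 CPM (SE) for Ighm, where the DN3 mean was 317 ± 41.7 CPM (SD, n = 6). It did so at 82.2 ± 2.60 CPM for Ralgps2 (DN3 mean 125 ± 20.7 CPM), 38.1 ± 6.64 CPM for Bach2 (19.9 ± 4.71 CPM), 36.0 ± 4.24 CPM for Tnfrsf13b (37.5 ± 8.44 CPM) and 11.3 ± 2.49 CPM for Cd37 (7.69 ± 3.21 CPM). The level at 0 was above the DN3 mean for Ighm, Bach2 and Cd37 and below it for Ralgps2, while that of Tnfrsf13b ran from 33.9 to 39.8 CPM without 1 library, on either side of its DN3 mean. Some members that scaled also met 0 above their DN3 mean, Pou2af1 at 17.1 ± 4.09 CPM (DN3 mean 6.98 CPM) and Cd72 at 11.9 ± 3.81 CPM (4.997 CPM), and Cd79b met it at 20.8 ± 10.6 CPM (28.7 CPM). For Igkc it was -13.3 ± 14.1 CPM and for Ighd -25.1 ± 31.9 CPM.

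Spib and Btk were shared members whose lines passed near 0. They met it at 0.777 ± 5.54 CPM for Spib and 0.917 ± 0.645 CPM for Btk, while their DN3 means were 33.5 ± 14.0 and 6.75 ± 2.58 CPM. Cd86 was the reverse, with 2.36 ± 0.772 CPM on the line and 0.0321 ± 0.0505 CPM in DN3. The line is an extrapolation below the lowest B-cell sum, and leaving out each DN4 library in turn moved the value at 0 between 540 and 571 CPM for Ighm, 80.6 and 83.7 CPM for Ralgps2 and -3.04 and 4.71 CPM for Spib.

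**Figure D4:**
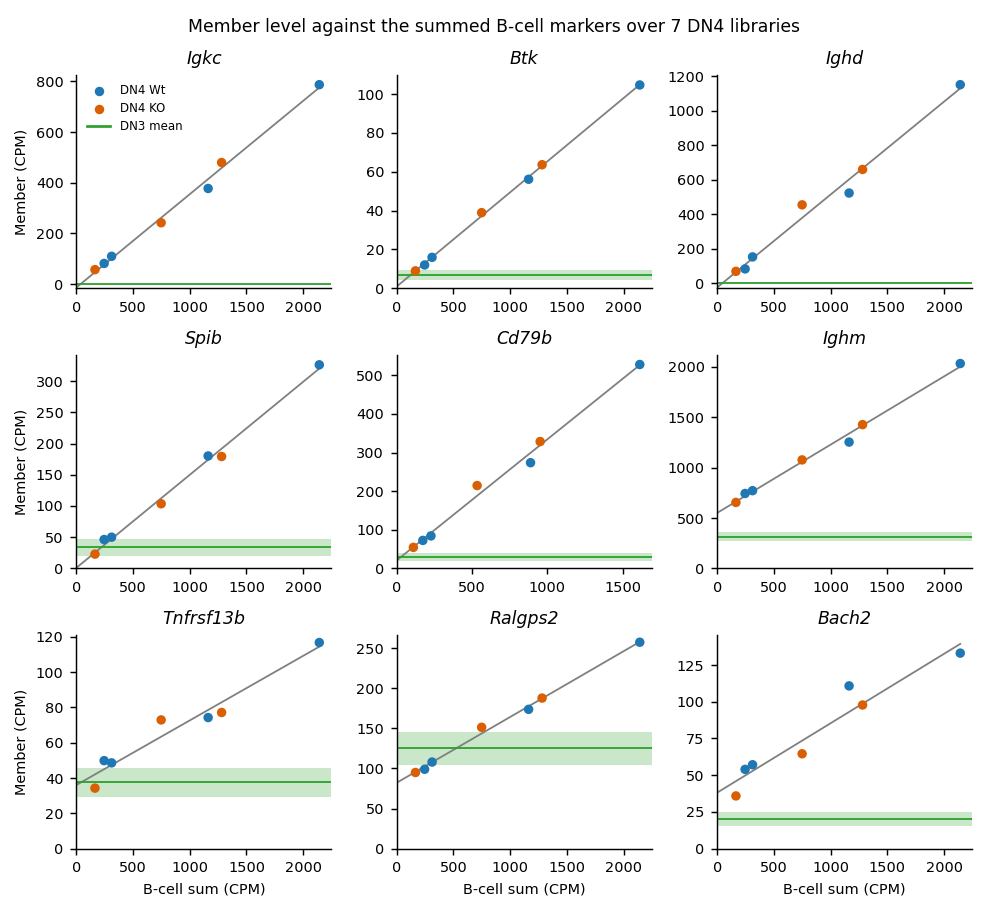
CPM of 9 members (vertical axes, linear) against the B-cell sum in CPM (horizontal axes, the member left out for Cd79b) in the 7 DN4 libraries, Wt in blue and KO-labelled in orange, with the least-squares line in grey and the DN3 mean ± SD of 6 libraries in green. The lines of Igkc, Btk, Ighd and Spib pass near 0, and those of Ighm, Tnfrsf13b, Ralgps2 and Bach2 meet the axis at 551, 36.0, 82.2 and 38.1 CPM.

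Between the genotypes, no member was called. In DN4, 0 of 36 members differed between KO-labelled and Wt libraries by edgeR's quasi-likelihood test, where 7 of 13084 genes (0.0535%) were called, and 0 members had an unadjusted p under 0.05. DESeq2's Wald test and limma-voom also called 0 members. All 36 log2 fold changes were below 0, from -0.59 to -0.10, with a median of -0.37 against 0.00 over all genes, and the smallest adjusted p was 0.94. The genotypes overlapped for every member, where 7.04% of 13509 genes did not overlap. The direction depended on single mice, since it was positive for 27 members without KO51 (median 0.10) and for 34 without WT48 (median 0.30). It was positive for 0 members without KO45 (median -0.37), KO49 (-1.01), WT40 (-0.66) or WT46 (-0.63), and for 1 without WT05 (-0.27).

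The receptor chains and the markers of the B-cell sum are given here as examples in DN4. Cd79a was at 242 ± 192 CPM (SD, n = 3) in KO-labelled and 315 ± 304 CPM (SD, n = 4) in Wt mice, a log2 fold change of -0.34 ± 0.86 (SE; adjusted p = 0.984). Ighm was at 1053 ± 386 and 1200 ± 602 CPM, with -0.15 ± 0.38 (adjusted p = 0.984), and Ighd at 393 ± 300 and 477 ± 489 CPM, with -0.24 ± 0.94 (adjusted p = 0.987). Igkc differed by -0.35 ± 0.86 (adjusted p = 0.984), Iglc2 by -0.28 ± 0.89 (adjusted p = 0.987) and Cd79b by -0.23 ± 0.77 (adjusted p = 0.987). Ms4a1 differed by -0.58 ± 0.85 (adjusted p = 0.967), Pax5 by -0.35 ± 0.90 (adjusted p = 0.984) and Ebf1 by -0.43 ± 0.83 (adjusted p = 0.983). Each of these differences was smaller than its standard error, so a change of the size seen could not be told from the spread between mice.

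**Figure D5:**
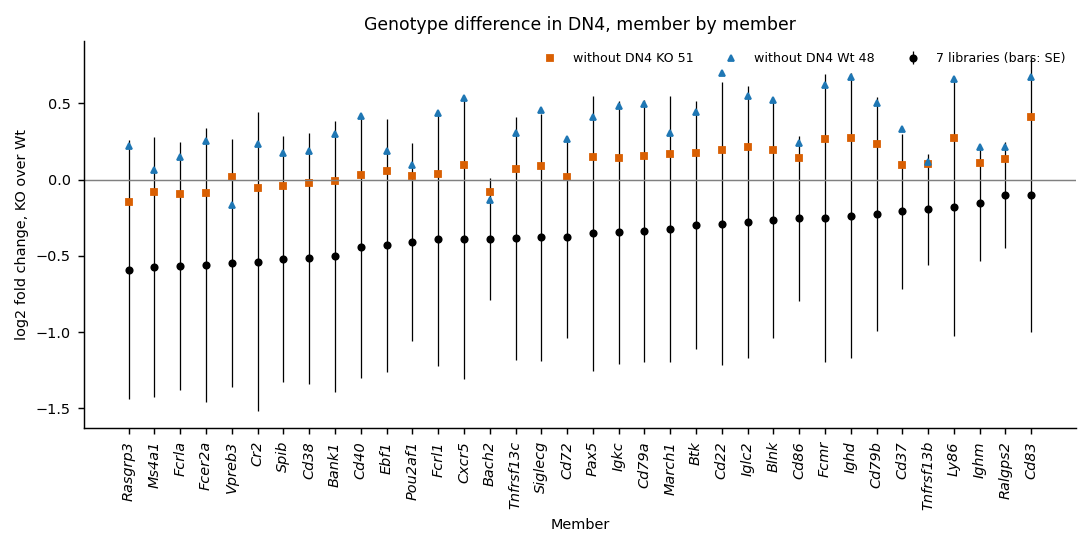
Log2 fold change of KO-labelled over Wt DN4 libraries for the 36 members, in rising order, with all 7 libraries (black, bars are SE), without KO51 (orange squares) and without WT48 (blue triangles). The black points lie between -0.59 and -0.10, and most points of the other 2 sets lie above 0.

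Counts on the Y-linked genes Ddx3y, Eif2s3y, Kdm5d and Uty, 3247 to 3716 in all, were found in the libraries of WT40 and WT46 and in no other. These mice had the lowest B-cell sums of the Wt group, 246 and 311 CPM, while WT05 and WT48 had 1162 and 2142 CPM and the 3 KO-labelled mice, without Y-linked counts, had 165 to 1281 CPM. The part of this difference in the genotype comparison was not tested.

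In DN3, 16 members were tested between the genotypes and 0 were called, where 0 of 12105 genes (0%) were called and 168 genes had an unadjusted p under 0.05. The smallest member p was that of Pou2af1, with a mean of 5.51 CPM in the KO-labelled mice against 8.46 CPM in Wt, with a log2 fold change of -0.62 and an adjusted p of 0.99996 (unadjusted p = 0.0447). Pou2af1 and Ebf1 were the 2 members whose DN3 genotypes did not overlap, where 6.56% of 13509 genes did not. Ighm differed by 0.00, Cd79b by -0.17 and Cd79a by -1.56, each with an adjusted p of 0.99996. The difference between the stage changes of the genotypes was tested over all 13 libraries, and 0 of 36 members and 0 of 13361 genes (0%) were called, with 480 genes at an unadjusted p under 0.05. DESeq2's Wald test called 3 genes between the genotypes in DN3 and 2 for the stage change, and 0 members in either.

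The DN3 library of WT46 held more counts of some B-cell genes than the other DN3 libraries. Cd79a was counted 57 times there and 5 to 17 times elsewhere, Pax5 26 times and 0 to 15 times, and Vpreb3 12 times and at most 1 time. Ms4a1 and Ighd did not share this, with 4 and 15 counts in WT46 and 2 to 11 and 13 to 33 elsewhere. Cd79a made up 93.4% of the summed Cd79a and Ms4a1 counts in this library (exact 95% interval 84.1% to 98.2%), and 56.2% to 65.9% in the 7 DN4 libraries, that of WT46 included (59.3%). In the other DN3 libraries, with few counts, it was 38.5% to 75.0%, and the intervals of KO49 (46.5% to 85.1%), KO51 (34.9% to 96.8%) and WT05 (34.9% to 90.1%) overlapped that of WT46. Without this library, 5 members were at the floor in DN3, Ebf1 and Vpreb3 with the other 3, and 30 members were called in Wt.

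Other genes of B cells followed the list in part. Of 24 further genes of receptor signalling, 13 rose from DN3 to DN4 in each genotype. In Wt 0 fell and 11 were not called, and in KO-labelled mice 1 fell and 10 were not called. In Wt, the adaptor Dok3 rose by 3.87 ± 0.85 (adjusted p = 0.0127) and the kinase Blk by 2.65 ± 0.55 (adjusted p = 0.01). Of 26 other genes of mature B cells, 1 of them a member, 25 and 26 were tested, 18 and 17 rose, 1 fell in each genotype, and 6 and 8 were not called. Cd180 rose by 7.52 ± 1.42 (adjusted p = 0.00663) in Wt, and Plac8 fell by 1.205 (adjusted p = 0.0316) in Wt and 1.69 (adjusted p = 0.0059) in KO-labelled mice. Of 9 MHC class II genes, 8 rose in Wt mice and 9 in the KO-labelled ones. H2-Aa rose by 8.23 ± 1.16 (adjusted p = 0.00187) in Wt. The medians of these 3 lists in Wt were 1.19, 3.08 and 5.45, beside -0.03 over all genes.

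The genes of early B-cell stages and of late ones were counted in the same way. Of 12 genes of the pro-B and pre-B stages, many of which thymocytes use as well, 10 were tested in each genotype, 0 rose and 5 fell, among them Erg by -5.23 ± 0.42 (adjusted p = 0.000137) and Cd93 by -1.80 ± 0.20 (adjusted p = 0.000666) in Wt. Over all genes 13.4% and 11.2% were called higher and 9.43% and 7.34% lower, and with 10 genes a count of 0 higher is close to that background. Of 13 genes of germinal centre and plasma cells, 10 were tested in Wt, where 4 rose and 2 fell, and 9 in KO-labelled mice, where 3 rose and 1 fell, and Tnfrsf17 stayed at 3 counts or fewer in all 13 libraries. In Wt those that rose included Gcsam (4.78 ± 0.92, adjusted p = 0.0072) and Fas (2.79 ± 0.38, adjusted p = 0.00149), and those that fell were Xbp1 (-0.96 ± 0.21, adjusted p = 0.012) and S1pr2 (-0.52 ± 0.13, adjusted p = 0.0242). Jchain, which joins secreted antibodies, changed by 1.62 ± 0.74 (adjusted p = 0.156).

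Markers of other cell types moved with the stage as well. These counts stand beside 13.4% of all genes called higher in Wt and 11.2% in KO-labelled mice. Of 12 NK and innate lymphoid markers, 10 and 11 were tested, 8 rose and 0 fell in each genotype, and their summed level was 249 to 334 CPM in DN3 and 361 to 696 CPM in DN4. Of 12 plasmacytoid dendritic cell markers, which include Spib, 9 were tested in Wt and 10 in KO-labelled mice, 4 rose in each genotype and 2 and 3 fell. Ly6c2 rose by 5.65 and 6.62 on the log2 scale (adjusted p = 0.000416 and 0.00322), Pacsin1 by 4.77 and 4.70 (adjusted p = 7.33e-05 and 0.00063), Irf8 by 3.18 and 2.74 (adjusted p = 0.0127 and 0.00853) and Ccr9 by 1.70 and 1.56 (adjusted p = 0.00542 and 0.0272). Lair1 fell by 1.36 and 1.49 on the log2 scale (adjusted p = 0.00087 and 0.00574), Runx2 by 1.18 and 1.39 (adjusted p = 0.00559 and 0.00577), and Bst2 by 0.76 in KO-labelled mice (adjusted p = 0.00609). The markers had a summed level of 315 to 550 CPM in DN3 and 591 to 1392 CPM in DN4, while Klk1 stayed at 3 counts or fewer in all libraries. Of 16 myeloid and dendritic cell markers, 6 were tested in Wt, where 2 rose and 1 fell, and 7 in KO-labelled mice, where 1 rose and 1 fell. Ctss rose by 5.77 and 4.16 (adjusted p = 0.000964 and 0.00378) and Fcer1g by 2.36 in Wt (adjusted p = 0.00374). The change of Lyz2 was -2.81 and -3.36 on the log2 scale (adjusted p = 0.0156 and 0.00162). The markers had a summed level of 56.8 to 78.3 CPM in DN3 and 91.2 to 284 CPM in DN4, and Clec9a stayed at the same limit. Of 8 erythroid markers, 1 was tested and rose in Wt, with at most 6.29 CPM in sum, and Hba-a2, Alas2 and Slc4a1 stayed at that limit. The T-lineage markers summed to 6101 to 7287 CPM in DN3 and 5417 to 8127 CPM in DN4. All 12 were tested, and 3 rose and 3 fell in Wt, and 2 rose and 2 fell in KO-labelled mice. Cd2 rose by 4.17 and 3.13 (adjusted p = 1.64e-05 and 0.000568) and Cd5 by 2.75 and 2.55 (adjusted p = 0.000508 and 0.000377). Ptcra changed by -2.13 and -1.65 (adjusted p = 0.00178 and 0.00133) and Cd3g by -0.84 and -1.03 (adjusted p = 0.0375 and 0.00185). The part of these other cells in the levels of the shared members was not tested.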

How the data were processed

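Poly(A) RNA of sorted DN3 and DN4 thymocytes was sequenced from stranded TruSeq libraries. The authors deposited 1 table of raw counts per gene (47937 genes, 13 libraries), made per the study's methods and the submitters' processing notes with Cutadapt, STAR and featureCounts on mm10. Versions, annotation release and the strand setting are not given in the sources used here. Counts that could be split between copies or overlapping genes stand as deposited. No column was left unused (0).

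Groups came from the sample labels. Gene symbols, lengths and shared 50-base windows came from GENCODE M21. Counts were tested with edgeR 4.0.16 (quasi-likelihood, TMM) in R 4.3.3, separately for DN4 against DN3 in each genotype, for genotype in each stage, and for their interaction over all 13 libraries, after edgeR's expression filter with a minimum count of 10. Adjusted p-values are Benjamini-Hochberg over all genes tested, with a threshold of 0.05, and the standard error is the log2 fold change divided by the root of the F statistic. DESeq2 1.42.0, limma 3.58.1 (voom), other scalings and filters, a mouse block and leaving out each library were alternatives. The mouse block kept only mice with both stages and so left out WT40. On simulated counts with 200 genes changed 4-fold, the test recovered 85% (Wt stage), 86.5% (KO-labelled stage), 86% (DN4 genotype) and 88% (DN3 genotype), with 7.1%, 2.26%, 3.91% and 6.88% of calls false. The changed genes were drawn at random from all genes tested. These shares therefore do not give the recovery for the members, many of which varied widely between DN4 mice.

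Each mouse with both stages gave a pair. Deviations from the group means correlated between its stages at 0.124 to 0.46 over 13361 genes in the 6 mice. Exact binomial and counting intervals are at 95% and, like the floor of 3 counts, cover counting error only. The members and lists were chosen with earlier results of these data known. By rule, per-library values were given for the 5 markers of the B-cell sum, for Ighm, Ighd, Igkc and Iglc2, for the 3 members with the highest level per kilobase in each DN3 class, and for the 3 with the smallest and the 3 with the largest SD of the ratio to the B-cell sum. Iglc2 and some DN3 levels near 0 were shortened to ranges or totals. Fold changes were given for these and every member called, and for up to 4 called genes of each other list. For the plasmacytoid dendritic cell list every called marker was given. Vpreb3 and Spib values by library, Cd3e and Jchain, and the genes of the WT46 DN3 library were chosen after their values were seen.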

Additional observations from a re-analysis of the deposited data

Results flagged for a closer look

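In the 4 Wt DN4 libraries, the CPM of each of the 36 members, the B-cell sum and the log2 ratio of each of 35 members to that sum were looked at for a library far from the others by Dixon's criterion at its 95% critical value. Of 72 values tested, 2 passed, and chance passes about 1 in 20. Fcer2a, relative to the B-cell sum, was low in WT40 (log2 ratio -3.07, against -2.37, -2.35 and -2.33 in WT05, WT46 and WT48), with a gap of 0.951 of the range. Siglecg was low in WT05 (-3.06, against -2.75, -2.73 and -2.78 in WT40, WT46 and WT48), with a gap of 0.843 of the range.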

How the results depend on the processing

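DN4 against DN3, 33 members were called in Wt and 32 in KO-labelled mice. With at least 10 counts in every library 7 and 8 were called, of 10 and 11 tested, because fewer members entered the test. With limma-voom 9 and 14 were called, and the cause was not tested. The other scalings, filters and tools gave 33 to 35 and 32 to 34. Leaving out 1 library gave 30 to 35 and 28 to 35. Over all genes, Wt calls fell from 2903 to 1782 with library totals and were 1845 to 3393 without 1 library, and KO-labelled calls were 1407 to 2790 without 1 library. With the mouse as a replicate block, 34 members were called in each genotype, and the KO-labelled calls over all genes were 4499 against 2338. The members gained were Tnfrsf13b in Wt and Spib and Tnfrsf13b in KO-labelled mice, and no other call of a member changed. In Wt the block fit also left out WT40. Without WT40 and with no block 35 members were called, Spib and Tnfrsf13b among them, so the gain in Wt cannot be credited to the block.

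Between genotypes 0 members were called under every alternative run. Over all genes, DN4 calls were 11 with no filter, 51 with DESeq2 and 0 to 8 without 1 library, DN3 calls 1 with no filter, 3 with DESeq2 and 0 to 1 without 1 library, and DESeq2 called 2 genes for the interaction. Without 1 library, the DN4 genotype difference ran from -1.04 to 0.49 for Cd79a, -1.02 to 0.41 for Pax5, -1.26 to 0.065 for Ms4a1, -0.76 to 0.50 for Cd79b, -1.07 to 0.19 for Ebf1, -1.10 to 0.48 for Igkc, -0.41 to 0.21 for Ighm, -1.08 to 0.55 for Iglc2 and -0.80 to 0.67 for Ighd. In DN3 the genotype difference ran from -2.57 to -0.81 for Cd79a, -0.71 to -0.48 for Pou2af1, -0.50 to 0.11 for Cd79b and -0.11 to 0.14 for Ighm. The Ralgps2 stage change in Wt ran from -0.072 to 0.43.

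With 0 counts as the limit 1 member was at the floor in DN3, with 10 counts 12 were, and 3 to 5 without 1 library. With 5 CPM as the limit 6 members were shared, and 11 to 13 without 1 library. The 29 members that scaled were 29 without any 1 library. With Cd79a alone as reference they were 28, where Cd79a, which scaled in the main setting, was not itself assessed. The range of the B-cell sum was 7.77-fold without WT48. DN3 counts near 0 limit every fold change of the members at or near the floor.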
